A study of Homo sapiens with 3 samples.

Results

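The heat shock chaperones of the cytosol, nucleus and mitochondria were examined in LNCaP cells exposed to n-butylidenephthalide (BP), a phthalide of the medicinal root of Angelica sinensis. They were taken as a list of 38 genes, matched by symbol to the annotation deposited with the arrays, and 38 of 38 were found among the 21148 genes with a symbol. HSPA1A and HSPA1B were annotated to the same transcript clusters, so the 38 genes stand for 37 separate measurements. LNCaP is an androgen-responsive human prostate cancer cell line, and all cultures were of this line in serum-containing RPMI medium. RNA of control cells and of cells given 70 µg/ml BP for 3 h or for 24 h was hybridized to 3 Affymetrix Human Gene ST arrays, 1 per condition. The control array carries only the name of the cell line, so neither a solvent nor a harvest time is given for it (the title of the series names DMSO), and the culture time of the control and the effect of BP cannot be told apart. With 1 array per condition there was no replicate check, no test was possible and no p-value is given, and both BP differences share the control array. Log2 values are given throughout in the order control, BP 3 h, BP 24 h. Of 8 epithelial and LNCaP markers 7 were measured, and 4 of them were 2-fold lower at 24 h, among them KLK3 (10.16, 10.05, 7.38), while the keratin gene KRT8 was higher (10.14, 10.46, 11.08). Of 12 markers of other cell types, 7 had equal values on the 3 arrays and 1 was 2-fold higher at 24 h, the smooth muscle actin gene ACTA2 (7.84, 7.75, 9.31). The part of these markers in the results was not tested.

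Heat shock proteins bind unfolded proteins, hold them in solution and help them refold. In the cytosol, HSP70 proteins work in cycles of ATP hydrolysis that are started by J proteins (the DNAJ families) and ended by nucleotide exchange factors of the HSP110 and BAG families, and clients may pass on to HSP90 and its cochaperones. Small heat shock proteins such as αB-crystallin act without ATP, and mitochondria hold their own HSP70, HSP90 and HSP60 to HSP10 machines. Heat, oxidants and unfolded cytosolic proteins activate the transcription factor HSF1, which binds heat shock elements in the promoters of many of these genes, whereas unfolded proteins in the endoplasmic reticulum (ER) are sensed by a separate pathway.

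A few chaperone genes were higher in BP-treated cells, at different times, and most of the machinery was close to control cells. After 3 h, HSPA1A, HSPA1B and DNAJB1 were 2-fold higher or more, which is 3 of 38 genes (7.89%) against 0.307% of all genes. HSPA1A and HSPA1B share 1 of the 37 measurements, so these are not 3 separate measurements. After 24 h, CRYAB, HSPB8, DNAJB4 and HSPA4L were 2-fold higher or more, which is 4 of 38 genes (10.5%) against 1.61% of all genes. The shares of all genes, here and below, include dim genes. Brighter genes were those whose highest value exceeded the median of such values over genes. Of the 34 brighter members, 3 were 2-fold higher at 3 h and 3 at 24 h, against 0.539% and 2.79% of all 10569 brighter genes. No member was 2-fold lower at either time, against 0.0426% of all genes at 3 h and 2.22% at 24 h. No member was past 2-fold at both times, and 31 lay within 2-fold at both. The threshold of 2-fold is that used by the study for its gene table, and a difference here is the deposited log2 value of BP-treated cells minus that of control cells.

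The typical member hardly differed from control cells. The median difference over the members was 0.05 at 3 h and 0.00 at 24 h on the log2 scale, beside 0.00 and 0.00 over all genes, and the differences spanned -0.35 to 1.49 at 3 h and -0.59 to 2.44 at 24 h. Centring on the 75th percentile of the arrays gave -0.03 for the 3 h median and quantile normalization -0.02, so it has no settled direction. Over all genes, the central 95% of differences ran from -0.35 to 0.49 at 3 h and from -0.90 to 0.83 at 24 h. Many deposited values were exactly equal between arrays, for a reason that was not tested. Of the members, 6 had the same value on all 3 arrays, namely HSF1, HSPA1L, HSPA2, DNAJA4, BAG1 and BAG5, beside 34.1% of all genes. A difference of 0.00 in these data may therefore be an exact tie, and some values were carried by many clusters of an array at once.

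**Figure D1:**
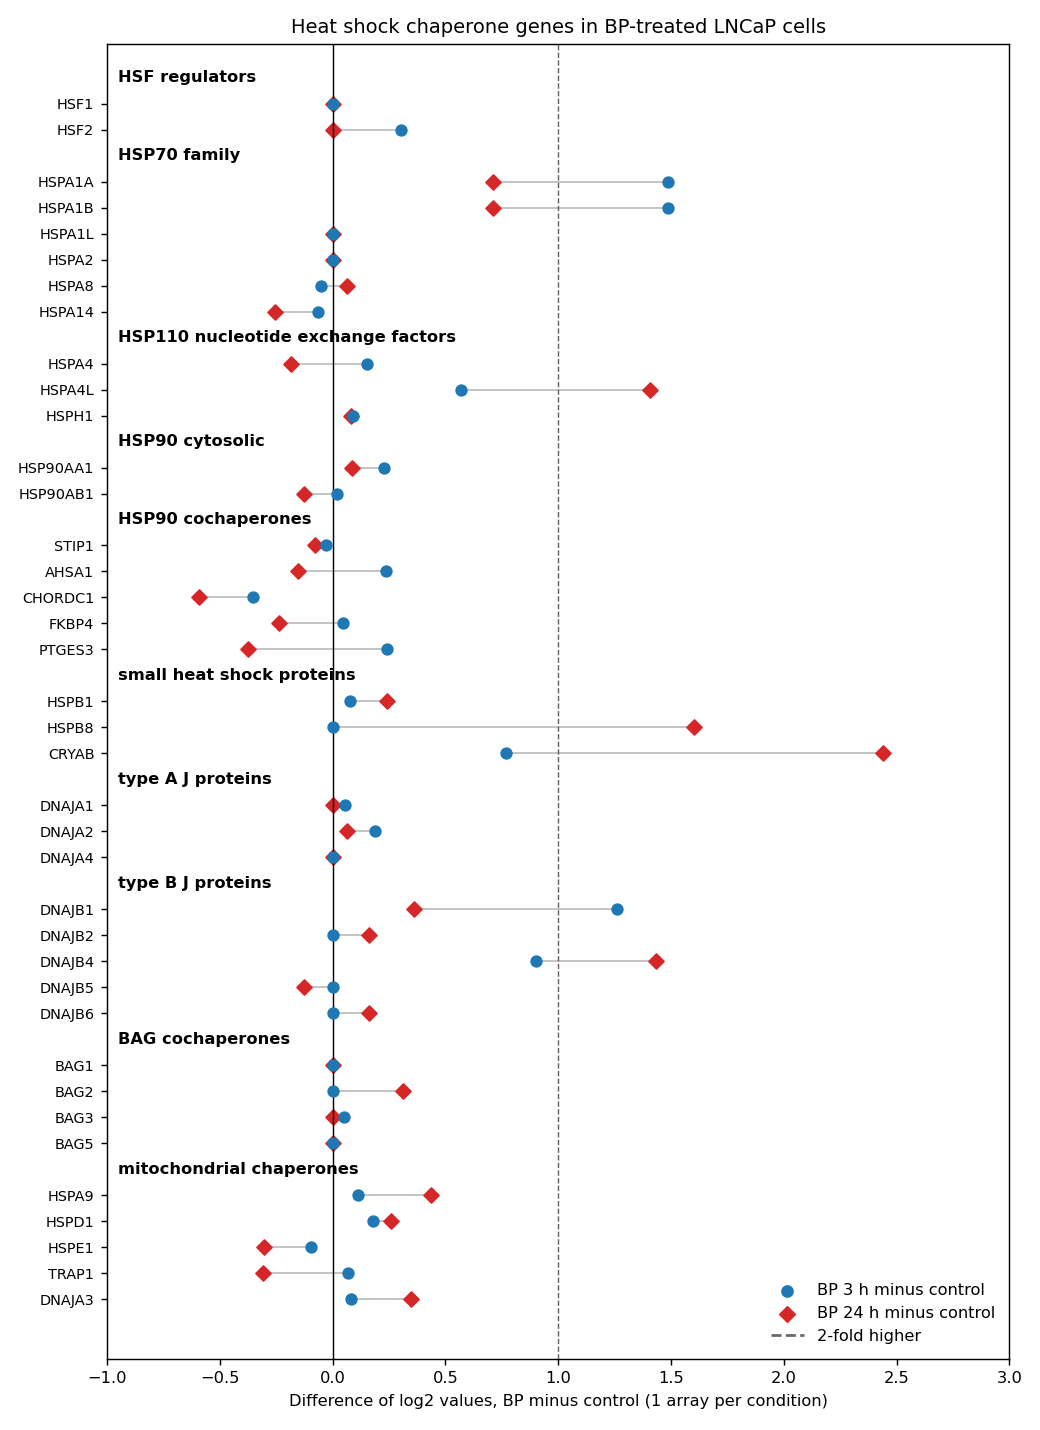
Difference of deposited log2 values between BP-treated and control LNCaP cells for the 38 chaperone genes, grouped by role, at 3 h (blue circles) and 24 h (red diamonds), from 1 array per condition and without error bars. HSPA1A, HSPA1B (1 shared measurement) and DNAJB1 lie past the dashed 2-fold line at 3 h, and HSPA4L, HSPB8, CRYAB and DNAJB4 lie past it at 24 h.

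The transcription factors of the response did not differ by 2-fold. HSF1, the main stress-activated factor, had a log2 value of 8.04 on each of the 3 arrays. HSF2, a related factor, had 7.09, 7.40 and 7.09, a difference of 0.30 at 3 h. HSF1 is activated at the protein level, which these arrays do not measure.

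Heat shock elements are alternating repeats of the letters GAA and TTC separated by any 2 bases. Promoters of 300 bases, from 250 before to 50 after the start of a transcript, were taken from RefSeq (GRCh38.p14) and searched for GAANNTTC and TTCNNGAA, which are 2 units in opposite orientation and read the same on both strands, and for 3 units in a row, which overlap these matches. Of the 38 genes, 34 had a promoter in the table, some with several starts. CRYAB, HSPA14, FKBP4 and HSF1 had none. At least 2 units stood in a promoter of 19 of the 34 genes (55.9%), against 16.2% of all genes of the table, and 3 units in a row in 7 (20.6%), against 0.608%. Of the 49 promoters of these genes, 20 (40.8%) held 2 units, against 13.5% of all 35116 promoters. Such a match is a description of letters, not a binding site. The sequences below show matches in the genes past 2-fold that had a promoter in the table and in some other genes, with the matching letters in capitals. CRYAB, which had the largest difference, has therefore no sequence here.

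The stress-inducible HSP70 genes were highest at 3 h. HSPA1A and HSPA1B (6p21.3) encode the inducible HSP70 and were read together by their shared clusters. Their log2 values were 8.94, 10.43 and 9.65. Cells treated for 3 h thus had 2.80-fold the control level, those treated for 24 h had 1.64-fold, and the later value lay -0.78 from the earlier. The 3 h difference of 1.49 was exceeded by 26 genes on the array, 0.123% of all. The arrays carried 5 clusters for these genes, and their differences ran from 1.49 to 1.62 at 3 h and from 0.67 to 0.72 at 24 h, although clusters of near-identical genes are not independent measurements. The promoter of HSPA1A (chr6:31815293-31815592, plus strand) held 1 match of 2 units, which began 106 bases before the start.
HSPA1A: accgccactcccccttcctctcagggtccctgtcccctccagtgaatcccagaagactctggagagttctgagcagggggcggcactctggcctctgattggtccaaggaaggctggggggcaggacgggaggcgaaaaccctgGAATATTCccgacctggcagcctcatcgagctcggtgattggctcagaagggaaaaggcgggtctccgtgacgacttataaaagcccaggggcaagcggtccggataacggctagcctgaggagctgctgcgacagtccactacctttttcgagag
The promoters of HSPA1A and HSPA1B were identical at 277 of 300 bases, and a stretch of 60 bases of HSPA1B (chr6:31827607-31827666, plus strand) shows the same 8 letters at 105 bases before its start.
HSPA1B: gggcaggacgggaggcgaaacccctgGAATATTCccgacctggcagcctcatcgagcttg
HSPA1L, a testis-enriched HSP70 gene, lies head to head with HSPA1A, and their promoter windows shared 241 bases including this match. Its log2 value was 5.07 on each of the 3 arrays and in each of its 3 clusters, a value that 83 clusters of the control array carried.

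The other HSP70 genes stayed within 2-fold. HSPA8 (11q24.1), the constitutive HSC70 that also serves in clathrin uncoating and chaperone-mediated autophagy, had 12.47, 12.42 and 12.54. HSPA2 had 5.45 on each array, and HSPA14, which works at the ribosome, had 7.54, 7.47 and 7.28. The differences of HSPA8 were thus -0.05 and 0.06, and its promoter held 3 units in a row at 2 places. The place nearer to the start lies in this stretch of 60 bases (chr11:123062158-123062217, minus strand).
HSPA8: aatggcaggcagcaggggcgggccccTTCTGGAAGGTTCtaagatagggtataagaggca

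Among the J proteins, which bring clients to HSP70 and stimulate its ATPase, the type B genes DNAJB1 and DNAJB4 were past 2-fold and the type A genes were not. DNAJB1 (19p13.2) encodes HSP40, the usual partner of the inducible HSP70. Its log2 values were 9.42, 10.68 and 9.78, so it had the same order of arrays as HSPA1A and HSPA1B. This is 2.40-fold the control level after 3 h and 1.29-fold after 24 h, with a difference of -0.90 from the earlier to the later time, and 32 genes on the array had a larger 3 h difference. In 1 of its 3 promoters (chr19:14518348-14518647, minus strand), matches of 2 units began 77 and 47 bases before the start, and another of the 3 held 1 match just after its start.
DNAJB1: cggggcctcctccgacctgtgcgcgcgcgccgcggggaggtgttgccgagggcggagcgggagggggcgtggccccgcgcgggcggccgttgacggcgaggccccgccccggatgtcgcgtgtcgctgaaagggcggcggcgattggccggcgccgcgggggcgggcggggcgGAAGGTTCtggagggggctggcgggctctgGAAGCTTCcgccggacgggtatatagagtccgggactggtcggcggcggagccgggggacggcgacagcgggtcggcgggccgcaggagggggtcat
DNAJB4 (1p31.1), which encodes another HSP40 protein, had 6.91, 7.82 and 8.35. It had 1.87-fold the control level after 3 h and 2.70-fold after 24 h, and unlike DNAJB1 it was higher at the later time, by 0.53. Of its 2 promoters 1 held a match, shown in a stretch of 60 bases (chr1:78004815-78004874, plus strand).
DNAJB4: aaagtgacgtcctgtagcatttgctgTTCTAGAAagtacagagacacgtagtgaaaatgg
The 3 other type B genes had no difference at 3 h, and at 24 h DNAJB2 and DNAJB6, which keep aggregation-prone proteins soluble, had differences of 0.16 and 0.16 and DNAJB5 had one of -0.13. DNAJA1 and DNAJA2, J proteins for HSC70, had differences of 0.05 and 0.19 at 3 h and of 0.00 and 0.07 at 24 h. DNAJA4 had 4.75 on each array.

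**Figure D2:**
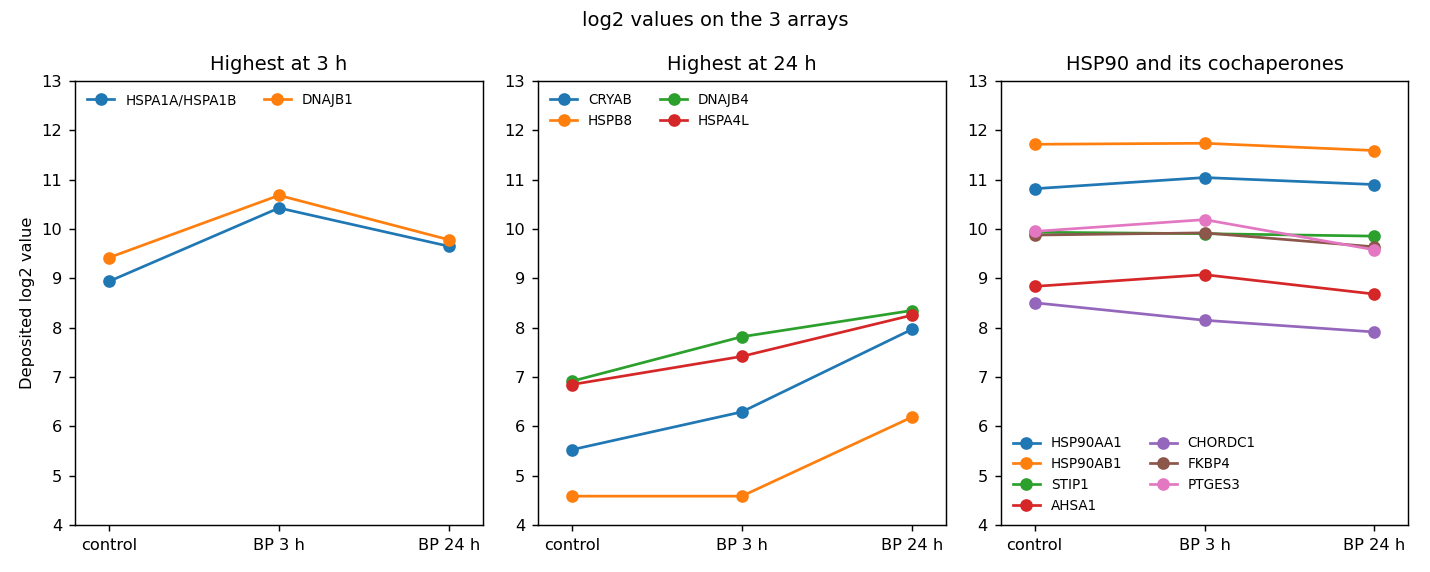
Deposited log2 values (vertical axis) of selected chaperone genes on the control, BP 3 h and BP 24 h arrays, each point being 1 array. HSPA1A/HSPA1B and DNAJB1 peaked at 3 h (left), CRYAB, HSPB8, DNAJB4 and HSPA4L were highest at 24 h (middle), and the HSP90 genes and cochaperones were lower at 24 h than at 3 h (right), with STIP1 turning sign under 2 other scalings.

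The nucleotide exchange factors of the HSP110 family release ADP from HSP70 and hold clients themselves, and HSPA4L stood apart from its relatives. HSPA4L (4q28) had log2 values of 6.85, 7.42 and 8.25. The level was lowest in control cells, 1.49-fold as high after 3 h and 2.65-fold after 24 h, and 0.733% of all genes had a larger difference at 24 h. HSPA4 had 9.33, 9.49 and 9.15. HSPH1 (HSP105), known as heat-inducible, had 8.75, 8.84 and 8.83, which are differences of 0.09 and 0.08. Of the 3 starts listed for HSPA4L, 1 had a match of 2 units, 170 bases before it (chr4:127782126-127782185, plus strand), and the promoters of HSPA4 and HSPH1 held none.
HSPA4L: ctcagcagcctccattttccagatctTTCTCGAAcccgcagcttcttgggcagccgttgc
The BAG cochaperones, which bind the ATPase domain of HSP70, stayed within 2-fold. BAG3, the partner of HSPB8 in selective autophagy and a known target of HSF1, had 8.58, 8.63 and 8.58. BAG1 had 7.02 on each array, BAG5 also had equal values on the 3 arrays, and BAG2, an inhibitor of the ubiquitin ligase CHIP, had 6.38, 6.38 and 6.69, a difference of 0.31 at 24 h.

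Of the 3 small heat shock genes of the list, CRYAB and HSPB8 gave the largest differences of all members, at 24 h, and HSPB1 did not. CRYAB (11q22.3-q23.1) encodes αB-crystallin, which holds misfolding proteins and is best known from lens and muscle. Its log2 values were 5.52, 6.29 and 7.96, of which that at 3 h was carried by 29 clusters. This is 1.70-fold the control level after 3 h and 5.42-fold after 24 h, and 13 of the 21148 genes had a larger difference at 24 h. The control value of CRYAB lay below 6.08, the median of genes on that array, with 39.3% of genes below it. It is not known to lie above background. HSPB8 (12q24.23), which with BAG3 directs damaged proteins to autophagy, had 4.58, 4.58 and 6.18. The deposited values give 3.03-fold at 24 h, but the control value was carried by 128 clusters of that array and the 3 h value by 139, and neither is known to lie above background. The 24 h value of HSPB8 was carried by this cluster alone and lay close to 6.07, the median of genes on that array. HSPB1 (HSP27), the small chaperone also tied to actin, had 10.45, 10.53 and 10.69, a difference of 0.24 at 24 h. The promoter of HSPB8 (chr12:119178681-119178980, plus strand) held matches 88 bases before and 4 bases after the start, and the former has the same 8 letters as that of HSPA1A.
HSPB8: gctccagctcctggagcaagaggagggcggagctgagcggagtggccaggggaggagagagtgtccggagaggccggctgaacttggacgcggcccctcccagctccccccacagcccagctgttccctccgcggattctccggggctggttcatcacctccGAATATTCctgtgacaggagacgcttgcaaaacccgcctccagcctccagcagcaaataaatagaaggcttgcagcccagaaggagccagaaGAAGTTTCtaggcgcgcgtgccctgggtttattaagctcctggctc
HSPB2, another small heat shock gene, was added by name after its values were seen because it lies head to head with CRYAB. It was annotated to a cluster shared with C11orf52, and this had 4.61 on each array. Also added after their values were seen, HSPB3, HSPB6, HSPB7 and HSPB11 had 24 h differences of -0.03, -0.10, 0.00 and -0.21. Of these, only HSPB11 was among the brighter genes.

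HSP90 stabilizes kinases and other signaling proteins, and its genes and cochaperones showed no increase of 2-fold. HSP90AA1 (14q32.33), the inducible form, had log2 values of 10.82, 11.04 and 10.90. HSP90AB1 (6p12), the constitutive form, had 11.72, 11.74 and 11.59. Both were lower at 24 h than at 3 h, and so were the 5 cochaperones, except that the difference of STIP1 between the times, -0.05, became 0.01 with 75th percentile centring and 0.07 with quantile normalization. At 24 h, the 5 cochaperones were all below control cells, with differences of -0.08 for STIP1 (HOP, which links HSP70 to HSP90), -0.16 for AHSA1, which stimulates the HSP90 ATPase, -0.24 for FKBP4 (FKBP52), an immunophilin of steroid receptor complexes, -0.37 for PTGES3 (p23) and -0.59 for CHORDC1. Of all 21148 genes, 5920 were below control cells at 24 h, and of the 10569 brighter genes, 3794 were. The 5 differences of the cochaperones lay between -0.90 and 0.83, the limits given above for the bulk of all genes. Only that of CHORDC1 was larger in size than 0.41, the SD of the 24 h differences over all genes. Whether the cochaperones differed as a group was not tested. At 3 h, AHSA1 and PTGES3 had differences of 0.24 and 0.24, STIP1 and FKBP4 of -0.03 and 0.05, and CHORDC1 of -0.35. The median of the 5 cochaperones was 0.05 at 3 h, or -0.05 after quantile normalization, and -0.24 at 24 h. CHORDC1, which encodes the HSP90-binding protein morgana, had 8.50, 8.15 and 7.91. It was the 1 member at least 1.5-fold lower at 24 h, against 4.13% of all genes, so this count is no larger than the background gives.

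Of these 7 genes 3 had 3 units in a row in a promoter, whereas STIP1 had 2 units and AHSA1 and PTGES3 had no match. FKBP4 had no promoter in the table. CHORDC1 had 5 units in a row in the stretch of 60 bases shown here (chr11:90223076-90223135, minus strand), and HSP90AA1 and HSP90AB1 had 3 units in a row (chr14:102087099-102087158, minus strand, and chr6:44247752-44247811, plus strand).
CHORDC1: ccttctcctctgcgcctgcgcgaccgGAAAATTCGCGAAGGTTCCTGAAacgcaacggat
HSP90AA1: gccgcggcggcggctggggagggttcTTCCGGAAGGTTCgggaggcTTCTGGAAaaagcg
HSP90AB1: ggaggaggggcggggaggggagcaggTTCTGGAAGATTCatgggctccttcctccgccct
The differences of the 7 members with 3 units in a row ran from -0.35 to 0.23 at 3 h and from -0.59 to 0.26 at 24 h. At background shares of 0.307% and 1.61% of all genes, the absence of a 2-fold difference in 7 genes is no result about them. They were CHORDC1, DNAJA1, DNAJB6, HSP90AA1, HSP90AB1, HSPA8 and HSPD1. Of the 7 members past 2-fold, 6 had a promoter in the table, and each of these 6 held 2 units and none held 3 in a row. Over the 34 members with a promoter, the shares were 55.9% and 20.6%. The 6 were picked by their array values, and HSPA1A and HSPA1B are 1 measurement with nearly the same promoter. DNAJB4 and HSPA4L had a match at only 1 of their starts. Whether the letters and the differences go together was not tested. The 15 genes with no match had 3 h differences of -0.10 to 0.30 and 24 h differences of -0.37 to 0.35. The 19 genes with a match had medians of 0.05 and 0.24, beside 0.07 and 0.00 for the 15 without one. These numbers describe exact letters in a short window and leave out matches with a changed base.

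**Figure D3:**
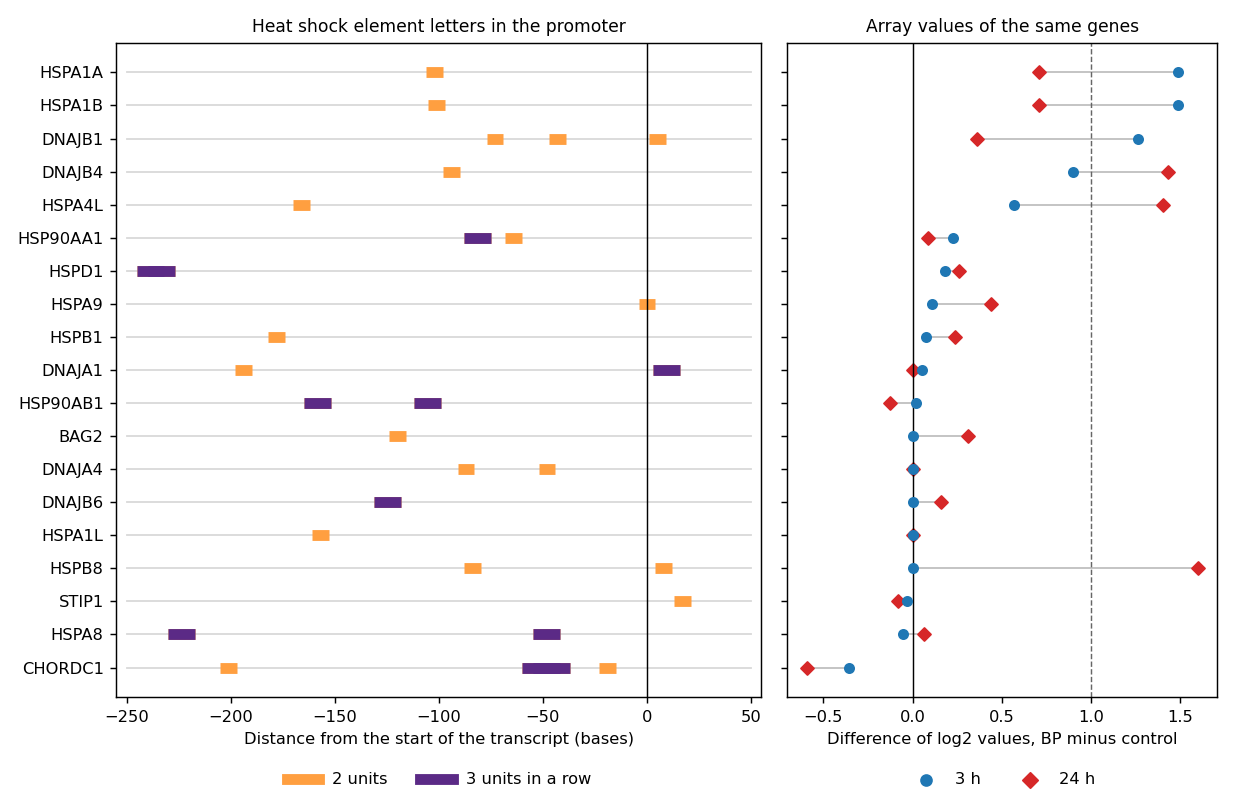
Left, positions of 2 units (orange) and of 3 units in a row (purple) of the heat shock element in the promoters of the 19 members with a match, in bases from the start of the transcript, with the starts of a gene laid over each other. Right, the differences of log2 values of the same genes at 3 h (blue circles) and 24 h (red diamonds), with the dashed line at 2-fold. The 7 genes with a purple mark lie between -0.59 and 0.26, left of the 2-fold line.

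The mitochondrial chaperones stayed within 2-fold. HSPA9 (mortalin), the mitochondrial HSP70 that also pulls proteins through the import channel, had log2 values of 10.45, 10.57 and 10.89, a difference of 0.44 and the largest of these 5 genes. DNAJA3, its J protein, had 8.75, 8.83 and 9.10. TRAP1, the mitochondrial HSP90, had 9.74, 9.81 and 9.43. HSPA9 and DNAJA3 were thus higher at 24 h, by 0.44 and 0.35, while TRAP1 had a difference of -0.31. HSPD1 (HSP60) and HSPE1 (HSP10) form the folding chamber of the matrix and are transcribed head to head, with 1 of the promoter windows of HSPD1 sharing 204 bases with that of HSPE1. HSPD1 had 10.68, 10.87 and 10.94, and HSPE1 had 7.70, 7.61 and 7.40. Their differences at 24 h, 0.26 and -0.30, had opposite signs, and both lay inside the central 95% of all genes. The median of the 5 mitochondrial members was 0.08 at 3 h, or -0.02 after quantile normalization, and 0.26 at 24 h. Among 20 other genes for mitochondrial chaperones, import and proteases, none was past 2-fold at either time and the medians were 0.03 and 0.00. Of all genes, 0.307% were 2-fold higher and 0.0426% lower at 3 h, and 1.61% higher and 2.22% lower at 24 h. At these shares, the absence of a 2-fold difference in the 5 members or the 20 other genes is no result about them. The largest differences at 24 h in that list were -0.90 for PPIF, which encodes cyclophilin D, and 0.62 for the inner membrane protease gene YME1L1.

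Among 16 chaperone genes of the ER none was past 2-fold after 3 h, and HSPA5, DNAJB9 and HSPA13 were 2-fold higher after 24 h. These are 0 of 16 genes against 0.307% of all genes, and 3 of 16 (18.8%) against 1.61%. HSPA5, the ER member of the HSP70 family (BiP), had log2 values of 10.42, 10.73 and 12.04, whereas the shared clusters of HSPA1A and HSPA1B had their highest value at 3 h. HSPA13, an HSP70 relative of microsomes, had 8.62, 9.12 and 9.93, and DNAJB9 (ERdj4) had 6.02, 6.48 and 7.29. The median of the ER list was 0.07 at 3 h, or -0.01 after quantile normalization, and 0.29 at 24 h, beside 0.05 and 0.00 over the 33 cytosolic and nuclear members. The difference between the lists was not tested.

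**Figure D4:**
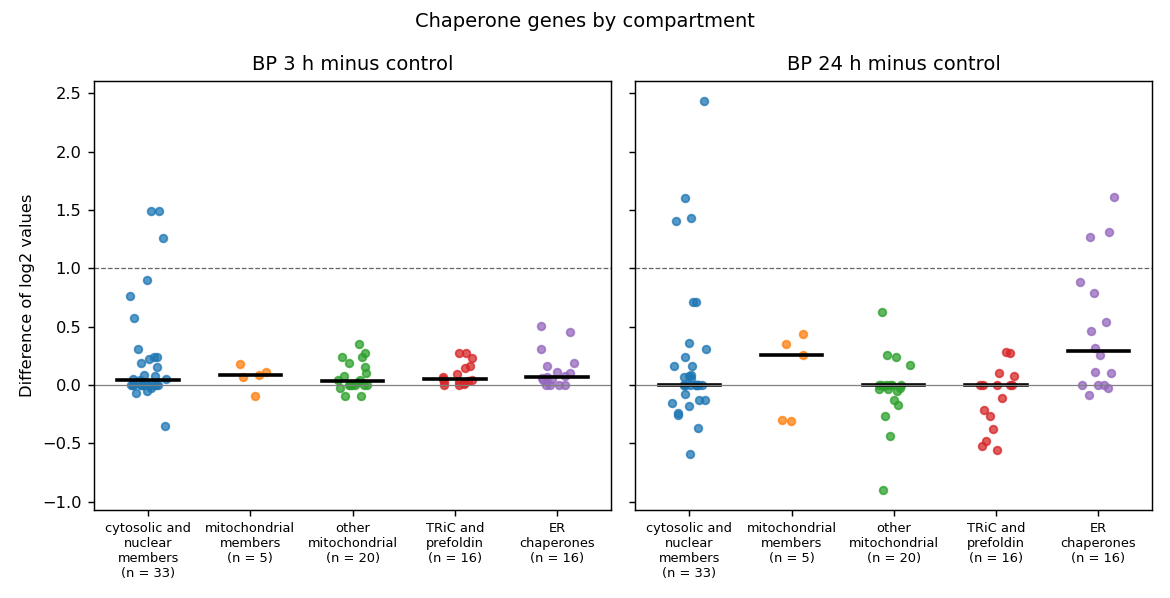
Difference of log2 values at 3 h (left) and 24 h (right) for genes of 5 lists, with each point 1 gene, spread sideways for sight, a black bar at the median of the list and the dashed line at 2-fold. The cytosolic and nuclear members include 3 points past 2-fold at 3 h and 4 at 24 h over a median of 0.05 and 0.00, and the ER list has 0 and 3 such points over a median of 0.07 and 0.29.

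Among 37 other chaperone and cochaperone genes, 0 were past 2-fold at 3 h, and at 24 h 2 were higher and 1 was lower. Of all genes, 0.307% were 2-fold higher and 0.0426% lower at 3 h, and 1.61% higher and 2.22% lower at 24 h. The count at 3 h and that of lower genes are near what these shares give. The medians of this list were 0.03 and 0.00. CLU, which encodes the chaperone clusterin, had 7.23, 7.23 and 8.68, and SGTA, a cochaperone of tail-anchored protein sorting, had 8.56, 8.68 and 9.75. FKBP5 (FKBP51), an immunophilin of HSP90 and a well-known androgen target, had 9.93, 10.01 and 7.82, in a cluster shared with LOC285847, a difference of -2.11 at 24 h. Its relative FKBP4 differed by -0.24. HSPA6, the strictly inducible HSP70B′ gene, was singled out after its values were seen, and it had 7.57, 7.77 and 7.85, differences of 0.20 and 0.28.

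From 3 h to 24 h, CRYAB differed by 1.67 and HSPB8 by 1.60 on the log2 scale, which made 2 of 38 genes past 2-fold upwards, against 0.87% of all genes, and 0 were 2-fold lower, against 2.51%. This comparison does not use the control array. In the values as deposited, 20 members were lower and 12 higher at 24 h than at 3 h, but 16 and 22 with 75th percentile centring, so the balance has no settled direction. Of all 21148 genes, 5103 were lower and 6943 higher as deposited, and of the 10569 brighter genes, 4192 and 3832. As deposited, 15 members had their highest value at 3 h, 12 at 24 h and 4 in control cells, orders that were not counted over all genes. The 15 included the inducible HSP70 genes, DNAJB1 and both HSP90 genes. The 3 h difference of HSP90AB1 was only 0.02, and it became -0.06 with 75th percentile centring. The 12 included the small heat shock genes, DNAJB4, HSPA4L and HSPA9. At a threshold of 1.5-fold, 5 members were higher at 3 h, with DNAJB4 and CRYAB added, against 1.61% of all genes, and 0 were lower, against 0.402%. After 24 h, 6 members were higher at this threshold, with HSPA1A and HSPA1B added, against 4.66% of all genes.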

How the data were processed

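RNA of LNCaP cells was measured on 3 arrays, 1 per condition. Each array has 33297 transcript clusters, with log2 values as deposited by the authors. Affymetrix Expression Console and RMA are named in the processing notes of the submitters, whereas the Methods describe MAS5 and a per-chip normalization in GeneSpring, and which of them made the values was not settled. The medians of the arrays were 5.48, 5.46 and 5.48. The tables of the authors' own comparisons hold log2 ratios and folds, which were not used. Gene symbols and cytobands of the clusters were read from the annotation in the same tables (genome build not stated). Arrays give no read depth, and their number limits the precision.

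Each of 21148 symbols was represented by its brightest cluster (by the mean of the arrays), including clusters with several symbols, and control values were subtracted from BP values without further normalization or filter. Differences of at least 2-fold were counted. No test was run. Members and lists were chosen with earlier results of these data known. The text names all members and, of each other list, the genes past 2-fold or otherwise the 2 with the largest difference at 24 h. Genes chosen after their values were seen are marked as such. Alternatives changed the scaling, the choice of clusters, the threshold and the filter. The calculation was tested on simulated data with differences well past the threshold and little noise, which checks the counting only. Promoter sequences came from RefSeq (GRCh38.p14). Python 3.11.15, numpy 2.4.6, pandas 2.3.3 and matplotlib 3.10.9 were used.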

Additional observations from a re-analysis of the deposited data

Results flagged for a closer look

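PTGES3, which encodes the HSP90 cochaperone p23, is listed because its differences from control cells had opposite signs at the 2 times and each was larger than 0.20, the SD of the 3 h differences over all genes. The SD of the 24 h differences was 0.41, which the 24 h difference of this gene does not exceed. It had log2 values of 9.95 (control), 10.19 (3 h) and 9.58 (24 h), which gives 0.24 at 3 h, -0.37 at 24 h and -0.61 between 3 h and 24 h. The difference between the times was not tested, since each rests on 1 array. In all, 7 members had opposite signs at both times, of which 6 were above control cells at 3 h and below at 24 h, namely HSPA4, HSP90AB1, AHSA1, FKBP4, PTGES3 and TRAP1. Centring on the 75th percentile turned the 3 h sign of 6 members, HSP90AB1, FKBP4 and TRAP1 among them, and quantile normalization that of 9, while PTGES3 kept its signs with -0.56 and -0.51 between the times.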

How the results depend on the processing

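The 376 differences of single members under alternative scalings or choices of clusters each moved by less than 0.20, and none of the members past 2-fold changed sign. Of these, the 72 from clusters of 1 symbol could not move, since the clusters were the same. With the mean of the clusters, only members with several clusters could move, namely HSPA1A, HSPA1B and HSPA1L. The counts of members past 2-fold were 3 and 4 higher and 0 lower under median centring, 75th percentile centring, quantile normalization and the mean of the clusters of a gene. Among members above the median level of genes, 3 were higher at 3 h and 3 at 24 h, since HSPB8 lies below that level. With only clusters of 1 symbol, 1 member was 2-fold higher at 3 h, since HSPA1A and HSPA1B have no such cluster. At 1.5-fold, 5 members were higher at 3 h and 1 was lower at 24 h. The mean over the members was 0.21 at 3 h and 0.21 at 24 h, above the medians of 0.05 and 0.00. No paired analysis was possible because each condition has 1 array, and no replicate could be left out. No probe detection calls were used, so values of dim clusters have an unknown share of background.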

Other observations

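The cytosolic chaperonin TRiC, which folds actin and tubulin, and its partner prefoldin were represented by 16 genes. None was past 2-fold at either time, and the median of the list was 0.05 at 3 h, or -0.02 after quantile normalization, and 0.00 at 24 h. Of the 16, 11 were lower at 24 h than at 3 h, or 9 with 75th percentile centring and 15 with median centring, so the count depends on the scaling. As deposited, 5103 of all 21148 genes were lower, and 4192 of the 10569 brighter genes. Whether the list differs from other genes was not tested. The TRiC subunit genes CCT3 and CCT5 had the largest differences at 24 h, -0.56 and -0.53, with log2 values of 10.35, 10.40 and 9.79 for CCT3 and 9.61, 9.63 and 9.08 for CCT5.

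Of 14 genes outside the chaperones that are known to respond to heat or proteotoxic stress, JUN and RGS2 were 2-fold higher after 3 h, and HMOX1, JUN and PPP1R15A after 24 h, against 0.307% and 1.61% of all genes. The other genes of the list, 12 at 3 h and 11 at 24 h, lay within 2-fold. The medians of the list were 0.34 and 0.08. JUN, an AP-1 subunit, had log2 values of 7.30, 9.32 and 8.48, and so was highest at 3 h, as HSPA1A, HSPA1B and DNAJB1 were. RGS2, a regulator of G-protein signaling, had 4.94, 5.95 and 5.31. Its 3 h difference of 1.01 was past 2-fold by less than the 0.08 by which 75th percentile centring lowered 3 h differences. Each of its values lay below the median of genes on that array (6.08, 6.09 and 6.07). HMOX1, which encodes heme oxygenase, had 6.46, 6.84 and 8.61, and PPP1R15A (GADD34), a phosphatase subunit that acts on eIF2α, had 5.85, 6.46 and 7.13, both highest at 24 h. These genes answer to several stress pathways, so their values do not separate HSF1 from the others.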
